A study of Mus musculus with 2 samples.

Results

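Retained-intron isoforms are the counted isoforms that carry the name of a Gencode transcript of the type retained_intron, and 723 of the 68065 isoforms counted in mouse muscle stem cells (MuSCs) by nanopore long reads were of this kind. They belong to 653 genes and were chosen by their annotated type alone, among 7754 counted isoforms that carry a reference name. The other reference-named isoforms were mostly protein_coding (6202), nonsense_mediated_decay (347) and processed_transcript (335). The cells came from Pax7creERT2R26-eYFPfl/fl mice on a C57BL6 background, in which tamoxifen turns on YFP in cells that express Pax7. Mice of 3 months received 100 uL of tamoxifen at 20 mg/ml daily for 5 days, and YFP-positive cells were sorted from the hindlimb. Quiescent cells came from uninjured muscle and activated cells from muscle 72 hours after an injection of 40 uL of 1.2% barium chloride, which kills myofibres. Quiescent and activated cells were run together in 1 10x Chromium capture, so there are no replicates and no table says which cell came from which muscle. A 10% aliquot of the capture was read both by Illumina short reads and by nanopore long reads, and the remaining 90% only by short reads.

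An intron that the spliceosome leaves in place usually adds a stop codon to the reading frame, and such a transcript may be held in the nucleus, spliced later or broken down by nonsense-mediated decay. Retained introns are often short and rich in G and C, and many genes for RNA-binding and splicing proteins use them to limit their own output. In MuSCs, intron retention has been described in quiescent cells. The annotated type covers transcripts that hold a whole intron as well as transcripts that start or stop inside one.

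The label was checked against the exons of the coding transcripts of the same genes in Gencode vM21 (GRCm38). Only 240 of the 723 isoforms (33.2%) hold at least 1 whole intron of a coding transcript, 41 of them at least 2 and 1 as many as 6. Another 418 (57.8%) hold no whole intron and have their 3′ end inside one. In 49 (6.78%) only the 5′ end lies inside an intron, and 16 fit none of these, 10 of which lie in genes without a coding transcript. For most of these isoforms the annotated type therefore stands for an end inside an intron and not for an intron left between 2 exons. Of the 723, 660 have an entry in the deposited annotation, each with the same exons as in Gencode, and these entries rest on 5 to 1027 supporting reads with a median of 31. The same exons are no separate check, since by the paper's methods isoforms close to a reference transcript were merged with it.

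The splice sites below are those of introns held by 7 of the whole-intron isoforms with the most UMIs, from Gencode vM21 transcripts on GRCm38, read 5′ to 3′ on the strand of the gene. A UMI is a random tag meant to mark 1 captured RNA molecule. The counts do not tell whether 1 molecule gave more than 1 long-read UMI through reading errors. Each donor shows 8 exon bases and 20 intron bases and each acceptor 20 intron bases and 8 exon bases, and the capitals mark the first and last intron bases.
Rps18, chr17:33955177-33955617, minus strand, donor: ccgccatgGTaagagcggaatccgcgcc
Rps18 acceptor: aactgcccgtgttctttcAGtctctagt
Fau, chr19:6058002-6058242, plus strand, donor: cgggctagGTgagacacgggggactgct
Fau acceptor: acaagcctttcttccttcAGtagccaac
Rps27 ENSMUST00000199031.4, chr3:90213302-90213609, minus strand, donor: acatgcctGTgagttccttggtccaggt
Rps27 ENSMUST00000199031.4 acceptor: tgcatttctgccccttttAGctcgcaaa
Rps27 ENSMUST00000200305.1, chr3:90213494-90213609, minus strand, acceptor: ctctgcgtctcttaggacAGtaaccaga
Rpl3, chr15:80081032-80081614, minus strand, donor: aagaactgGTaagaggctcttgggttcc
Rpl3 acceptor: actgtgctctgctcctgaAGgcacaagt
Rpl10a, chr17:28328619-28328810, plus strand, donor: gccatgagGTaagttgttatcgtggcgc
Rpl10a acceptor: ccttcgcttctccccaacAGcagcaaag
Rpl41, chr10:128548681-128548948, minus strand, donor: gagcgaagGTgagcggctcttaggtggt
Rpl41 acceptor: acatgatcgggtttttttAGtggcggaa
The introns of both Rps27 isoforms share the donor and differ in the acceptor. All 6 genes encode ribosomal proteins, Fau as a fusion with a ubiquitin-like protein. In 5 of the 7 isoforms the held intron is the first of its coding transcript, and those of Rpl3 and Rpl41 lie further in.

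The next 3 introns belong to the whole-intron isoforms of Mrps26 and Tma16, whose share of the gene differed most between the barcode groups, and of Eif4a1, which leads in UMIs outside the ribosomal protein genes.
Mrps26, chr2:130564228-130564307, plus strand, donor: gagctacgGTgcgagaggcccgggactg
Mrps26 acceptor: cggcgtcttgcccctcgcAGgatagcga
Tma16, chr8:66482544-66484057, minus strand, donor: aaggaaagGTgagtgtcagtctcgctag
Tma16 acceptor: tctgcaccttttggttcaAGattgaaga
Eif4a1, chr11:69668334-69668404, minus strand, donor: aacgagagGTgaggcccagtgcaggagg
Eif4a1 acceptor: cctgacttctgaatctccAGgagtggaa
The intron of Eif4a1 is 71 bases long and that of Mrps26 is 80 bases long, and the latter was read without an in-frame stop codon. The intron of Tma16 spans 1514 bases.

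The last 30 bases follow for 4 isoforms whose 3′ end lies inside an intron and whose share of the gene was higher in shallow barcodes by at least 10 points, with an interval that excluded 0 (the call used throughout). None of the 4 held a poly(A) signal, searched as AATAAA or ATTAAA on the transcript strand, in its last 40 bases.
Hnrnpl, chr7:28816907-28816936, plus strand: tgccaacacagtctgcaccaactggagatc
Kansl3, chr1:36365911-36365940, minus strand: ctagcctgggcaacatagttccaggccagg
Exosc1, chr19:41931708-41931737, minus strand: atttaattgcaagatctgacttatgaagtg
Gle1, chr2:29938926-29938955, plus strand: agcaacttgtgttacaaaaaaaaaaaaaaa
The last 20 bases hold 16 A in Gle1 and 5 to 7 in the other three.

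The held introns were short. The 279 distinct introns had a median length of 198 bases (quartiles 91.5 and 464), against 655.5 bases (quartiles 182 and 1778) for the 2010 other introns of coding transcripts of the same genes, and 75.6% against 43.7% were under 500 bases. Of overlapping held introns only 1 was kept, the shortest on ties, and the other introns were not reduced in this way. The paper also found a smaller percentage of full-length reads for longer transcripts. The part of either in the difference was not tested. The GC content of the held introns had a median of 54.0%, as had the rest of the isoform. The intron began with GT and ended with AG in 274 of the 279, and 259 lay within the coding sequence, 16 in the 5′ untranslated region and 4 in the 3′ untranslated region. Read on from the coding frame, 220 of the 259 coding introns (84.9%) held an in-frame stop codon, and 9 held none and had a length divisible by 3. By place, 53 were the first intron, 27 the last, 2 the only intron and 197 lay between. A whole small nucleolar RNA, which guides modification of ribosomal RNA, lay in 8 of the held introns (2.87%) and in 12 of the other introns (0.597%). The 8 include 3 in Rps12 and 1 each in Rpl12, Rpl13, Rps13 and Ppan.

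**Figure D1:**
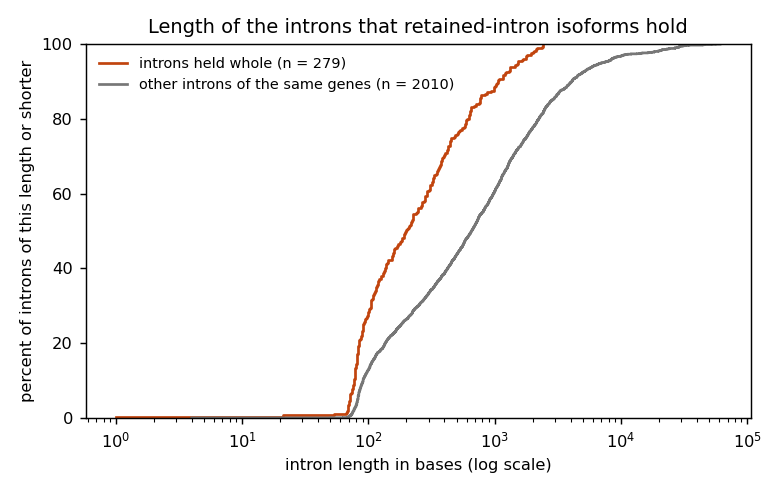
Cumulative percent of introns (y axis) by length in bases (x axis, log scale) for the 279 introns held whole by retained-intron isoforms and the 2010 other introns of coding transcripts of the same genes. The held introns reach 75.6% at 500 bases and the others 43.7%. The annotation lists 2 held introns and 1 other intron under 50 bases.

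The place of the 3′ end went with other features of the end. An end counted as inside an intron only where it lay in no exon of a coding transcript of the gene. This class rule by itself largely keeps such ends away from coding 3′ ends. Within 100 bases of the 3′ end of a coding transcript ended 70.8% of the whole-intron isoforms and 0.478% of those with a 3′ end inside an intron. A poly(A) signal lay in the last 40 bases of 70.4% of the former and 22.0% of the latter, against 79.8% of the protein_coding, 72.0% of the nonsense_mediated_decay and 60.3% of the processed_transcript isoforms. At least 12 of the last 20 bases were A in 11.2% of the whole-intron isoforms, 19.6% of those that end in an intron and 9.01% of the protein_coding isoforms. Oligo(dT) primes reverse transcription at runs of A, and whether it primed inside these introns was not tested.

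A shallow and a deep group of barcodes of the 10% aliquot were compared. Shallow barcodes held 3000 to 15000 short-read UMIs and none of Rrm2, Top2a and Cdk1, genes of DNA synthesis and cell division, and numbered 157. Deep barcodes held at least 20000 short-read UMIs and numbered 79. The groups were set by depth and not by the muscle of origin, so depth and cell state cannot be told apart. Shallow barcodes had a median of 8401 long-read UMIs (2143 to 21143, 1382498 in all) and deep barcodes 55293 (10162 to 162085, 4628237 in all). The short-read medians were 6729 UMIs in shallow barcodes, below the long-read median, and 65499 in deep barcodes, above it. The reason was not tested. The barcodes nearest to the limits held 2993, 15172 and 19660 short-read UMIs outside and 3103, 14226 and 20922 inside, and 21 barcodes of 3000 to 15000 were left out for a UMI of the cycle genes. The 8 markers of quiescence (Calcr, Spry1, Chrdl2, Heyl, Notch3, Pax7, Cd34 and Sdc4) were each higher in shallow barcodes and together held 1102 CPM (short-read counts scaled to a group total of 1000000) there and 101 in deep ones. The 8 markers of activated or cycling cells, Mki67 among them, were each higher in deep barcodes, at 513 against 42.2 CPM. Myod1, a myogenic transcription factor outside both lists, was higher in shallow barcodes, at 1106 CPM against 185 in deep ones. Malat1, a long non-coding RNA kept in the nucleus, held 28776 CPM in shallow and 3406 in deep barcodes. Of 11 markers of immune cells in the table, 4 were at 0 in shallow barcodes, Ptprc included, and the list summed to 506 CPM in shallow and 117 in deep barcodes, with Cd74 at 235 and 1.18 CPM and H2-Aa at 169 and 0. Of the 11, 4 were higher in shallow and 7 in deep barcodes, the latter including Lyz2 (8.97 and 27.3 CPM) and C1qb (0.897 and 12.7 CPM). In barcodes of the 90% aliquot that the 10% aliquot lacks, the immune list summed to 278 CPM in shallow and 5.09 in deep barcodes. There 10 of 11 immune markers were higher in shallow barcodes. Endothelial markers summed there to 18.5 and 3.90 CPM, with 8 of 8 higher in shallow barcodes. Fibro-adipogenic markers summed to 305 and 97.4 CPM, with 5 of 8 higher. Without the 2 barcodes of the 10% aliquot that held at least 10 UMIs of the immune list, the pooled ratio given below was 1.71.

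All 236 barcodes of both groups also occurred in the 90% aliquot. There they held a median of 0.813 times as many short-read UMIs (quartiles 0.801 and 0.853), and the profiles of a barcode in both tables correlated with a median Pearson r of 0.934 over 20506 genes (0.662 to 0.970, log2 counts plus 1, across genes, which are no replicates). By its own counts the 90% aliquot placed 144 of the shallow and 76 of the deep barcodes in the same group, and 5 shallow barcodes were deep there. How the same barcodes came to be in both aliquots was not tested. Wherever CPM values of the 90% aliquot are given, barcodes of the 10% aliquot were removed, which left 1000 shallow and 399 deep barcodes. Intervals below are exact binomial 95% intervals for shares and Newcombe intervals for differences. Mean differences over genes instead have normal 95% intervals, built from the counting variance of each gene's share. All these intervals cover counting error only, and with 1 capture no test between the groups was made.

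Retained-intron isoforms took a larger share of the long-read UMIs in shallow than in deep barcodes. They held 12308 of the long-read UMIs of shallow barcodes, a share of 0.890% (0.875 to 0.906), and 24187 of those of deep barcodes, a share of 0.523% (0.516 to 0.529). The ratio was 1.70 and the difference 0.368 points (0.351 to 0.385). Single shallow barcodes ranged from 0.297 to 1.64% with a median of 0.877%, and single deep barcodes from 0.275 to 0.944% with a median of 0.545%. The groups overlapped, with 144 of 157 shallow barcodes above the deep median and 66 above the highest deep barcode. The share fell from bin to bin with depth: 0.973% in 36 shallow barcodes under 5000 short-read UMIs, 0.901% in 100 between 5000 and 10000, and 0.800% in 21 above. It was 0.569% in 26 deep barcodes under 50000 UMIs, 0.540% in 31 up to 80000 and 0.482% in 22 above. Within shallow barcodes the share correlated weakly with the log10 number of short-read UMIs (Pearson r = -0.14, n = 157) and with the Malat1 share of short-read UMIs (r = 0.30), and within deep barcodes the values were -0.14 and 0.45 (n = 79). These barcodes share 1 library, and the part of Malat1 or of depth in the difference was not tested.

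**Figure D2:**
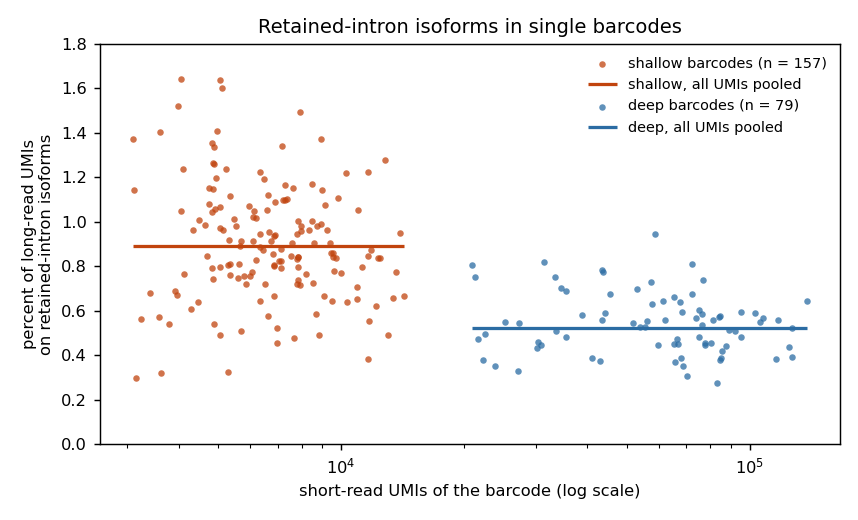
Percent of the long-read UMIs of a barcode that fell on retained-intron isoforms (y axis) by its short-read UMIs (x axis, log scale), for 157 shallow and 79 deep barcodes. Each point is a barcode and each line the share over all UMIs of the group, 0.890% and 0.523%. The groups overlap, and 66 shallow barcodes lie above the highest deep barcode at 0.944%.

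The ratio of shallow to deep shares was 1.31 for nonsense_mediated_decay isoforms (0.839 against 0.639%), 1.01 for processed_transcript isoforms and 0.855 for protein_coding isoforms (37.3 against 43.7%). It was above that of retained-intron isoforms for the 80 lincRNA isoforms, at 2.53 (0.310 against 0.123%). Isoforms without a reference name held 60.1% of the UMIs of shallow and 54.5% of those of deep barcodes. Counted among reference-named UMIs alone, retained-intron isoforms held 2.23% in shallow and 1.15% in deep barcodes. A few ribosomal protein genes carried much of the pooled value, since 4 isoforms of Rps18, Fau and Rps27 held 34.0% of all retained-intron UMIs in the groups and the 12 leading isoforms 44.9%. The median isoform held 15 UMIs in both groups together (quartiles 7 and 33), and 9 of the 723 held none.

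To set each isoform against its own gene, its share of the gene's long-read UMIs was taken where the gene held 50 or more UMIs in both groups. Of the 723 isoforms 416, in 364 genes, passed this minimum and 307 did not. Averaged over the 364 genes with equal weight, retained-intron isoforms took 8.98% of a gene's UMIs in shallow and 5.38% in deep barcodes, a difference of 3.60 points (3.28 to 3.92). The share was higher in shallow barcodes in 266 genes, lower in 95 and equal in 3. The same mean differed by 0.938 points (0.509 to 1.37) for nonsense_mediated_decay isoforms and by 0.0804 points (-0.375 to 0.536) for processed_transcript isoforms. With genes weighted by their UMIs, which favours ribosomal protein genes, the difference was 1.44 points.

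An isoform was called higher or lower where its share of the gene differed by at least 10 points and the interval of the difference excluded 0. Of the 416 isoforms 55 (13.2%) were called higher in shallow barcodes and 6 (1.44%) lower, against 6.07% and 15.9% of all 3458 reference-named isoforms past the same minimum. The counts of lower calls cannot be compared directly, since only 58 of the 416 isoforms but 1998 of the 3458 had a share of at least 10% in deep barcodes, from which a fall of 10 points is possible. With reference-named UMIs alone as the denominator, 37 of 179 retained-intron isoforms (20.7%) were called higher and 5 (2.79%) lower, against 7.48% and 7.43% of 1965 reference-named isoforms. The median difference of the 416 was 1.18 points, against -0.58 for all reference-named isoforms, and 296 of the 416 (71.2%) against 41.3% lay above 0. The calls often rest on few barcodes: without the barcode that held the most UMIs of the isoform in each group, 29 of 401 isoforms (7.23%) were called higher, all among the 55, and 4.19% of the reference-named ones. In those 55, the retained-intron isoform held a higher long-read CPM in shallow barcodes in every case, with a median ratio of 6.70. The other isoforms of the gene together held a lower long-read CPM in 23 of the 55, with a median ratio of 1.26 over the 55. The 55 were chosen by share from these same counts, so the CPM values add no separate support. Just outside the limit of 10 points stood Anxa11, a calcium-dependent membrane-binding protein, with 13.8 and 3.90%.

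**Figure D3:**
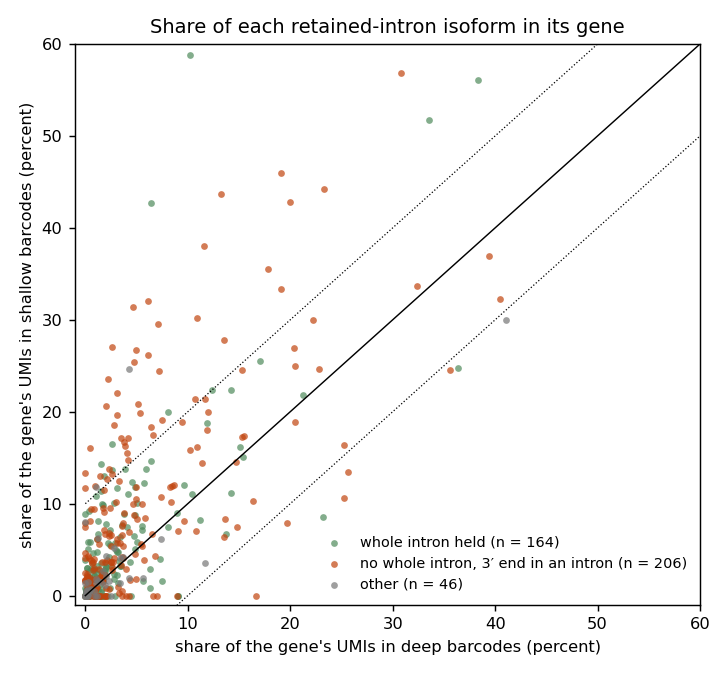
Share of the gene's long-read UMIs in shallow (y axis) and deep (x axis) barcodes, in percent, for the 416 retained-intron isoforms past the minimum, coloured by structure. The solid line marks equal shares and the dotted lines a difference of 10 points. Most of the isoforms far above the line have their 3′ end inside an intron.

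Isoforms that stop inside an intron and hold no whole one made up 0.221 of the 0.368 points of the pooled difference. These 418 isoforms held 0.338% of the UMIs of shallow and 0.116% of those of deep barcodes, a ratio of 2.91, and of the 206 past the minimum 43 (20.9%) were called higher and 4 lower. The 240 whole-intron isoforms held 0.514 and 0.370%, a ratio of 1.39, and 10 of 164 (6.10%) were called higher and 2 lower, beside 6.07% higher for all reference-named isoforms. With reference-named UMIs alone as the denominator, 18 of 97 whole-intron isoforms (18.6%) and 19 of 53 that end in an intron without a whole one (35.8%) were called higher, beside 7.48%, so the order of the classes held and the nearness of whole-intron isoforms to all did not. The 49 isoforms with only their 5′ end in an intron held 0.0263 and 0.0298%, a ratio of 0.880, and 1 of 32 was called higher. Per gene, the mean share differed by 4.73 points (4.21 to 5.24) for a 3′ end in an intron, by 2.68 points (2.26 to 3.09) for a whole intron and by -0.00062 points (-0.627 to 0.626) for a 5′ end alone. Without the leading barcode of each isoform, 25 of 197 isoforms that end in an intron (12.7%) and 3 of 159 whole-intron isoforms (1.89%) were called higher, against 4.19% of all reference-named ones. The ratio was 2.95 in isoforms that end in an intron with fewer than 12 A in the last 20 bases and 2.71 in those with 12 or more. Called higher were 32 of 168 (19.0%) of the former and 11 of 38 (28.9%) of the latter. The bases are the last ones of the annotated transcript, and the part of A content in the difference was not tested.

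Counted by the 3′ end alone, 459 retained-intron isoforms end in an intron, Tma16 and Rsrc2 among those that also hold a whole one. They held 0.368 and 0.129%, a ratio of 2.86, and 48 of 234 (20.5%) were called higher and 4 lower. A 3′ end inside an intron of another coding transcript also occurs in other types. The 124 such processed_transcript isoforms had a ratio of 2.005, and 6 of 58 past the minimum (10.3%) were called higher and 1 lower. The 152 processed_transcript isoforms that end in an exon had a ratio of 0.882, and 3 of 90 were called higher. The 384 protein_coding isoforms that end in an intron of another coding transcript had a ratio of 0.757, with 12 of 162 (7.41%) called higher and 26 (16.0%) lower, shares near those of all reference-named isoforms (6.07% and 15.9%). The pooled share of isoforms that end in an intron was thus higher in shallow barcodes for processed_transcript as for retained-intron isoforms, and lower for protein_coding ones.

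**Figure D4:**
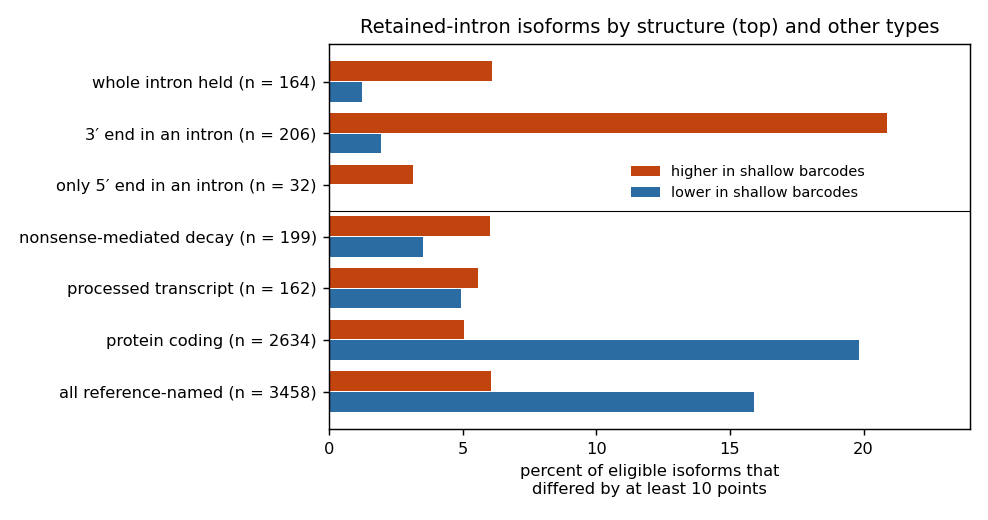
Percent of isoforms past the minimum of 50 UMIs per gene and group (x axis) that were called higher or lower in shallow barcodes, for retained-intron isoforms by structure (top) and for other transcript types (bottom). Isoforms with a 3′ end in an intron stand at 20.9% higher, and whole-intron isoforms at 6.10%, beside 6.07% of all reference-named isoforms.

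Most of the isoforms with the most UMIs belonged to ribosomal protein genes, and most of those kept nearly the same share of their gene. Rps18 ENSMUST00000174620.2 held 1733 of 7937 UMIs of its gene in shallow (21.8%, 20.9 to 22.8) and 5770 of 27215 in deep barcodes (21.2%, 20.7 to 21.7), and was seen in 155 of 157 shallow and all 79 deep barcodes. Fau ENSMUST00000236976.1 held 15.1 and 15.4%. The 2 isoforms of Rps27 held 16.2 and 15.1%, and 11.0 and 10.4%. For these 4 the interval of the difference held 0. Rpl10a (3.17 and 3.41%), Rps26 (4.07 and 3.34%) and Rpl36a (5.09 and 4.89%) were likewise within counting error. In Rpl3 (2.02 and 1.39%) and Rpl41 (3.23 and 1.12%) the share was higher in shallow barcodes, by 0.63 points (0.31 to 0.98) and 2.11 points (1.65 to 2.64). Ribosomal protein genes had 31 retained-intron isoforms in 23 of 104 genes, 44.9% of all retained-intron UMIs. Their median difference was 0.57 points, with 27 of 31 above 0 and none called. Averaged over the 23 genes, they took 4.40% of a gene's UMIs in shallow and 3.53% in deep barcodes. The difference was 0.865 points (0.643 to 1.09), with 20 genes higher and 3 lower in shallow barcodes. Of all 416 retained-intron isoforms past the minimum, 71.2% lay above 0 and 13.2% were called higher. Among all 180 reference-named isoforms of ribosomal protein genes past the minimum, none was called higher and 5 were called lower. In the other genes the pooled share was 0.562% in shallow and 0.267% in deep barcodes, a ratio of 2.11.

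Outside the ribosomal protein genes, Eif4a1, the helicase that unwinds mRNA for translation, had the most. Eif4a1 ENSMUST00000128519.7 held 242 of 2413 UMIs (10.0%, 8.86 to 11.3) in shallow and 250 of 8894 (2.81%, 2.48 to 3.18) in deep barcodes, in 71 and 56 barcodes. The difference of 7.22 points (6.03 to 8.52) stayed under the 10-point limit. The short-read level of the gene was nearly equal, at 401 and 375 CPM in the 10% aliquot and 518 and 541 CPM in the other barcodes of the 90% aliquot.

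The isoforms called higher with the largest differences came from genes of varied function. Mrps26, a protein of the small subunit of the mitochondrial ribosome, led. Its isoform with the 80-base intron held 40 of 68 UMIs (58.8%, 46.2 to 70.6) in shallow and 55 of 541 (10.2%, 7.75 to 13.03) in deep barcodes, in 17 and 27 barcodes. In long-read CPM this isoform held 28.9 in shallow and 11.9 in deep barcodes and the other isoforms of Mrps26 held 20.3 and 105. Short reads gave the gene 17.9 and 74.1 CPM in the 10% aliquot and 33.8 and 81.2 CPM in the other barcodes of the 90% aliquot. The isoform was thus higher in shallow barcodes while the gene as a whole was lower. Tma16, named for its association with the translation machinery, held 35 of 82 (42.7%) and 17 of 267 UMIs (6.37%) on an isoform that holds the 1514-base intron. The gene held 37.7 and 36.1 CPM in short reads. Exosc1, a subunit of the RNA exosome, held 45 of 103 (43.7%) and 59 of 446 UMIs (13.2%) on an isoform that stops in an intron. Its other isoforms held 42.0 and 83.6 long-read CPM. In these 3 genes the other isoforms together were lower in shallow barcodes, with 34.0 and 54.0 long-read CPM in Tma16.

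Kansl3, a subunit of the NSL histone acetyltransferase complex, held 62 of 109 (56.9%) and 45 of 146 (30.8%), and the isoform was the leading one of its gene. Gle1, a factor of mRNA export, held 27 of 71 (38.03%) and 22 of 190 (11.6%), on the isoform that ends in a run of A. Ercc8, a protein of transcription-coupled DNA repair, held 16 of 51 (31.4%) and 3 of 64 (4.69%). Arpp19, an inhibitor of the phosphatase PP2A in mitosis, held 17 of 53 (32.1%) and 21 of 344 (6.10%). Ercc8 and Arpp19 fell under the minimum of 50 UMIs without their leading barcode, while the calls of Mrps26, Tma16, Exosc1, Kansl3 and Gle1 remained.

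**Figure D5:**
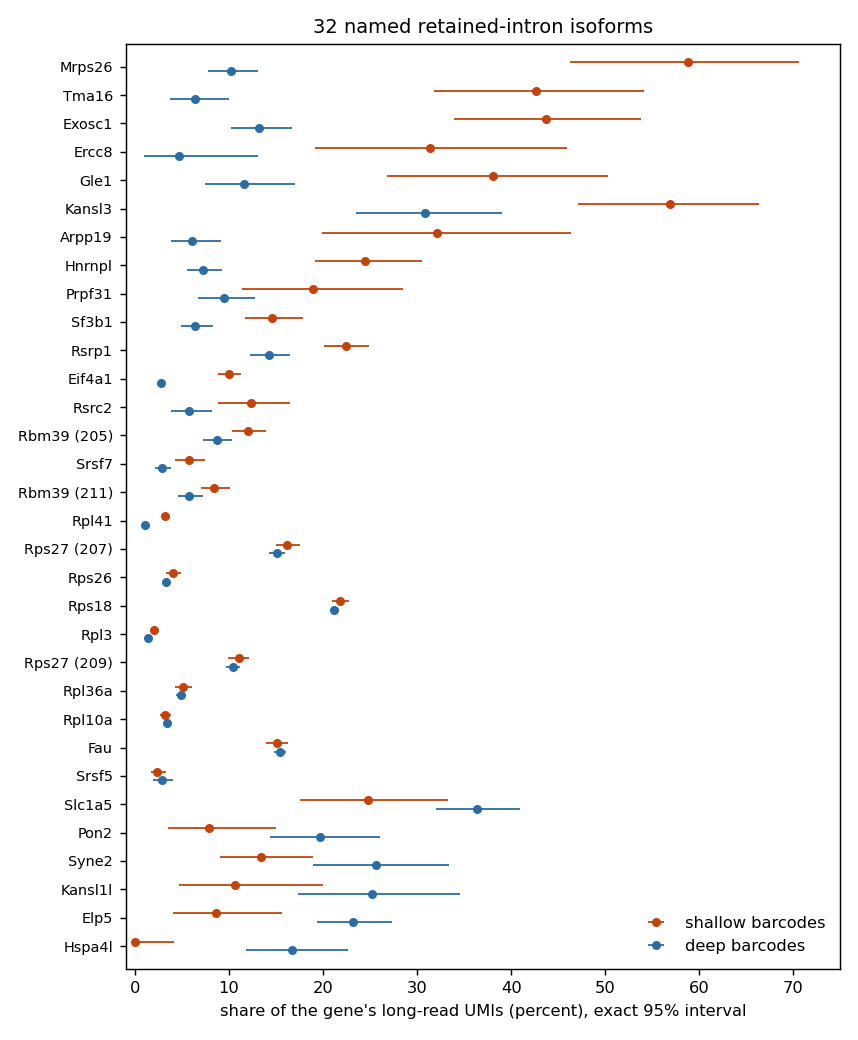
Share of the gene's long-read UMIs, in percent, for 32 named retained-intron isoforms in shallow and deep barcodes, ordered by the difference. Points are shares and bars exact 95% intervals, and numbers in brackets tell isoforms of 1 gene apart. Mrps26 lies at the top with 58.8 and 10.2%, the ribosomal protein isoforms cluster near equal shares and Hspa4l lies at the bottom with 0 and 16.7%.

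The 6 isoforms called lower in shallow barcodes were Hspa4l, Elp5, Kansl1l, Syne2, Pon2 and Slc1a5. Hspa4l, a chaperone of the Hsp110 family, held 0 of 86 UMIs in shallow barcodes, where 3 counts, the limit used for a count of 0, would be 3.49%, and 33 of 198 (16.7%) in deep ones. Elp5, a subunit of the Elongator complex that modifies tRNA, held 9 of 105 (8.57%) and 105 of 453 (23.2%). Kansl1l held 8 of 75 (10.7%) and 27 of 107 (25.2%). Pon2, a paraoxonase, held 8 of 101 (7.92%) and 38 of 193 (19.7%). Slc1a5, a transporter of glutamine, held 31 of 125 (24.8%) and 168 of 462 (36.4%) on an isoform with a 71-base intron. Counted among reference-named UMIs alone, the difference of Slc1a5 was -0.0853 points (-14.9 to 13.4). Syne2, which links the nucleus to the cytoskeleton, had isoforms called both ways. ENSMUST00000133623.7 held 27 of 201 (13.4%) and 39 of 152 UMIs (25.7%). ENSMUST00000157033.1, named after its values were seen, held 67 (33.3%) and 29 (19.1%). Both start near the same place on chromosome 12 and stop in introns.

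Of all 12024 genes with long-read UMIs 5.43% had a retained-intron isoform. Of the 6 genes of CLK and SRPK kinases, which phosphorylate SR proteins, none had one. The share was 21.6% for SR proteins and SR-related factors (8 of 37), 9.43% for hnRNPs and other RNA-binding regulators (5 of 53), 9.72% for the core spliceosome (7 of 72) and 11.1% for RNA helicases (3 of 27). It was of like size in some lists outside RNA processing, with 3 of 12 snoRNA host genes and 22.1% for ribosomal proteins. Respiratory chain genes stood at 13.7%, aminoacyl-tRNA synthetases at 12.5%, the proteasome at 11.4% and translation factors at 8.16%. Other lists stood lower, with 5.41% for immediate-early, 4.35% for proliferation and 6.67% for myogenic genes, and 0 of 32 for quiescence and niche genes. These shares were not set against the depth of each gene. Of 10 SR isoforms past the minimum 1 was called higher, of 5 hnRNP isoforms 2 were, of 7 core spliceosome isoforms and of 1 helicase isoform none, and in none of these lists was one called lower. The median difference was 3.12 points for SR, 4.22 for hnRNP and 8.13 for core spliceosome isoforms, against 1.18 for all 416 retained-intron isoforms and -0.58 for all reference-named ones. Above 0 lay 9 of 10, 5 of 5 and 7 of 7, beside 71.2% of the 416, and 13.2% of the 416 were called higher.

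Hnrnpl, a splicing regulator, held 57 of 233 UMIs (24.5%, 19.1 to 30.5) in shallow and 61 of 843 (7.24%, 5.58 to 9.20) in deep barcodes on an isoform that stops in an intron, in 18 and 16 barcodes, while its other isoforms held 127 and 169 long-read CPM. Rbm5, another splicing regulator, named after its values were seen, held 27 of 100 (27.0%) and 5 of 192 (2.60%). Both calls remained without the leading barcode.

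Further isoforms of these lists with at least 50 UMIs were not called. Rsrp1, a protein rich in arginine and serine, held 266 of 1188 (22.4%) and 160 of 1123 (14.2%) on an isoform with a 1302-base intron. Sf3b1, a core protein of the U2 snRNP, held 80 of 548 (14.6%) and 55 of 858 (6.41%), and Prpf31, of the tri-snRNP, 17 of 90 (18.9%) and 36 of 382 (9.42%). The 2 isoforms of Rbm39, a splicing factor, held 12.02 and 8.69%, and 8.43 and 5.79%. Srsf7 held 5.73 and 2.91% and Rsrc2 12.3 and 5.74%. In all of these the interval of the difference excluded 0. It no longer did for Prpf31 without its leading barcode (2.79 points, -3.29 to 12.1) or with shallow barcodes of 5000 to 15000 UMIs (3.48 points, -3.58 to 14.3), nor for Rsrc2 with the latter (3.48 points, -0.26 to 7.79). Srsf5 went the other way within counting error, at 2.39 and 2.82%, although the gene itself stood at 401 CPM in shallow and 63.1 in deep barcodes. Rsrp1 (338 and 76.5 CPM) and Rbm39 (747 and 308 CPM) were also higher in shallow barcodes as genes, and there the retained-intron share was higher too.

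Of 5 proteasome isoforms past the minimum, those of Psma1 (17.1 and 3.44%) and Psma3 (12.6 and 2.16%), both subunits of the 20S core, were called higher, and all 5 lay above 0 with a median of 3.55 points, beside 13.2% called higher and 71.2% above 0 of the 416. Psma3 missed the limit without its leading barcode, at 9.73 points. Of 13 isoforms of the respiratory chain and ATP synthase that of Ndufa9, a subunit of complex I, was called higher (16.0 and 0.434%), on 8 UMIs in shallow barcodes, and it was lost without the leading barcode. The 5 isoforms of translation factors all lay above 0 with a median of 1.495 points and none was called. Of the 3 isoforms of aminoacyl-tRNA synthetases past the minimum, and of the 6 of snoRNA host genes, none was called. None of the 32 genes of the quiescence and niche list and none of the markers of myofibres, immune, endothelial or fibro-adipogenic cells had a retained-intron isoform. The immediate-early list had 2 (Dusp1 and Ddit3), the proliferation list 3 (2 in Cdk4 and 1 in Cdk2) and the myogenic list 1 (Eya1, 6.67 and 13.7%), none of them called.

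In short reads of the 10% aliquot 42 of the 55 genes whose isoform was called higher (76.4%) were higher in CPM in shallow barcodes, against 47.5% of 2144 genes that have a reference-named isoform past the minimum. In the barcodes of the 90% aliquot that the 10% aliquot lacks, 36 of the 55 (65.5%) were higher, against 45.6%. Genes of the 416 isoforms lay between, at 57.9% and 54.8%, and of the 6 genes with an isoform called lower 4 and 5 were also higher in shallow barcodes. The median log2 difference (CPM plus 1) was 0.48 in the 10% and 0.34 in the 90% aliquot, against -0.07 and -0.12 for all. Short reads count the 3′ ends of a gene together, so they give the level of the gene and not which isoform it makes. The 55 were chosen for a higher share in long reads of these same shallow barcodes of the 10% aliquot. Molecules of the chosen isoform may also count towards the level of its gene. A call further needs enough UMIs of the gene in shallow barcodes, which held fewer long-read UMIs in all. This may favour genes higher there, whichever way the isoform is called. How far the choice of genes set the percentages in either aliquot was not tested.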

How the data were processed

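The authors aligned reads with minimap2 2.17 (submitters' processing notes, which also name Cell Ranger 1.3), counted short-read UMIs per gene with scPipe and long-read UMIs per isoform with FLAMES, and deposited these counts without normalization. Isoform types, exons and sequences were taken from Gencode vM21, on the assembly of the authors' vM24. No genome sequence was used here.

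UMIs were summed over barcodes of each group. Shares have Clopper-Pearson intervals and differences Newcombe intervals (Python 3.11.15, scipy 1.17.1), and an isoform was called at 10 points with at least 50 UMIs of its gene in each group. Mean differences over genes have normal intervals from counting variance. Functions were tested on simulated data at the real depths. The simulated UMIs were independent, so these tests do not show how clusters of UMIs in 1 barcode affect the calls. No doublet caller was run. The isoforms and gene lists were chosen with earlier results of these data known. Named isoforms are the 12 with the most UMIs, the 8 largest called each way, and those of the 5 RNA-processing lists with at least 50 UMIs. Other isoforms were named after their values were seen, as called members of a list, as neighbours of the limit or because a list had few. Alternatives were other group limits, denominators, minimums and subsets of isoforms. Some isoforms that the rule names are not reported here.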

Additional observations from a re-analysis of the deposited data

Results flagged for a closer look

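In barcodes under 3000 short-read UMIs, which no comparison uses, retained-intron isoforms held 0.716% of the long-read UMIs (1722 barcodes, 13402 UMIs), between the shares of deep and shallow barcodes and above the limit that a count of 0 allows. These barcodes had a median of 17 short-read and 629 long-read UMIs, and 6.25% of their short-read UMIs were mitochondrial, against 0.883% in shallow barcodes.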

How the results depend on the processing

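No paired analysis was possible because each aliquot is 1 library and no groups of replicates exist. Every alternative run kept the sign of the pooled and per-gene differences and of the named differences, except that of Fau, uncalled, which was 0.0658 points among reference-named UMIs. The causes were not tested beyond what each setting changes. The pooled difference of 0.368 points ranged from 0.352 to 0.382 over the 4 other group limits and both barcode exclusions. One exclusion kept the 144 shallow and 76 deep barcodes that the 90% aliquot placed in the same group, and gave the 0.382. The other left out barcodes with at least 10 UMIs of the immune list. It was 1.08 points among reference-named UMIs, 2.22 among UMIs of the host genes, 0.144 for whole-intron isoforms, 0.221 for a 3′ end in an intron, 0.320 with fewer than 12 A in the last 20 bases and 0.295 without ribosomal protein genes. The per-gene difference of 3.60 points was 4.54 and 2.95 with minimums of 20 and 100 UMIs, 2.68 for whole-intron isoforms, 4.73 for a 3′ end in an intron, 5.38 among reference-named UMIs and 1.44 with genes weighted by UMIs. Isoforms called higher and lower numbered 100 and 15 with a minimum of 20 UMIs, 23 and 4 with 100, 95 and 13 at 5 points, 17 and 0 at 20 points, and 10 and 2 for whole-intron isoforms. Without the leading barcode 29 were called higher and 7 lower. Under a minimum of 20 or 100 UMIs, 7.10% and 4.60% of reference-named isoforms were called higher, and 10.2% and 1.53% at 5 and 20 points. The exclusions of barcodes, the subsets by tail, 3′ end and ribosomal protein genes, the leading barcode and the UMI weight were chosen after seeing the data. Of 273 values for the 35 isoforms that the naming rule selects under other group limits, barcode exclusions and the reference-named denominator, 259 stayed within their interval and 14 moved, each with reference-named UMIs as the denominator. For 7 that value could not be computed because the isoform was the only named one seen. The count of A in the genome after the 3′ end was not run, since no genome sequence was used here. Depth limits the 307 isoforms under the minimum, and intervals take UMIs as independent, which clusters of UMIs in 1 barcode are not.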
